A study of Oryza sativa with 3 samples.

Results

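Young panicles of the rice (Oryza sativa) mutant ld-2 were compared with those of the japonica wild type (WT) for mature miRNA levels. According to the title of the series, the lodiculeless spikelet arises from a mutated miR172b and leaves the rice flower closed, lodicules being the organs at the floret base whose swelling opens it. Another library, from the mutant ld-1, entered the read minimum and the scaling and is given beside single results. Each genotype had 1 library of gel-purified small RNA. The plants received no treatment and grew in a greenhouse or a field plot, and the labels do not say which applied to each library, how many plants gave each RNA or what kind of allele ld-2 is. A row is 1 mature sequence of the deposited table. The comparison covers the rows with 30 or more reads summed over the 3 libraries, which were 109 of 367. The row nearest above that minimum was miR166m with 30 summed reads, and the nearest below was miR5507 with 28.

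Plant miRNAs are cut as a short duplex from a hairpin precursor. One strand is loaded into an ARGONAUTE protein and guides it to nearly complementary transcripts, which are cleaved or kept from translation. In a young panicle, old and conserved families set the timing of meristem fates and the identity of floral organs. Among them are miR156 and miR172, which act on SPL and AP2-like transcription factors, miR166 and miR319, which act on HD-ZIP III and TCP factors, and miR160 and miR167, which act on auxin response factors. The grass anther adds miR2118, which starts the production of phased small interfering RNAs from long noncoding transcripts.

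The sequences that carry the comparison are printed 5′ to 3′ in the DNA letters of the table, with the seed, bases 2 to 8, in capitals. The first group holds sequences lower in ld-2.
miR172b: gGAATCTTgatgatgctgcat
miR156a to miR156j: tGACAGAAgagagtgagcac
miR319a: aGCTGCCGaatcatccattca
miR159f: cTTGGATTgaagggagctcta
miR444d: tTGTGGCTttcttgcaagttg
miR820a to miR820c: tCGGCCTCgtggatggaccag
The next group holds sequences higher in ld-2, of which the first 4 are miR2118 rows with 3 different seeds.
miR2118h//miR2118k: tTCCTGATgcctctcattccta
miR2118f//miR2118j//miR2118m: tTCCTGATgcctcccattccta
miR2118c//miR2118q: tTCCCGATgcctcctattccta
miR2118e//miR2118r: tTCCCAATgcctcccatgccta
miR528, more abundant strand: tGGAAGGGgcatgcagaggag
miR528, rarer strand: cCTGTGCTtgcctcttccatt
miR398b: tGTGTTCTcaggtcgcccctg
miR164c: tGGAGAAGcagggtacgtgca
miR5791: tTGCAGGAgactagagaccag
The last group holds abundant sequences with small shifts, and the close relatives that are set against the rows above.
miR159a//miR159b: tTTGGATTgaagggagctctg
miR166a, b, c, d, f and j: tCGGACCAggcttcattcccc
miR167a//miR167b//miR167c: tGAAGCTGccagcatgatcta
miR1859: tTTCCTATgacgtccattccaa
miR172a//miR172d: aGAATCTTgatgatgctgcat
miR535: tGACAACGagagagagcacgc
miR319b: tTGGACTGaagggtgctccc
miR164a//miR164b//miR164f: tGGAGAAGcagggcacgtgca
miR396c: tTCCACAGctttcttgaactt

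The ld-2 library held 66642 miRNA reads, the ld-1 library 140807 and the WT library 116818. After TMM scaling (edgeR's trimmed mean of M values), 1 read stood for 13.7 RPM (reads scaled to library size) in ld-2 and 8.37 RPM in WT. The tested rows took 99.5% of the reads in ld-2 and 99.7% in WT. With 1 library a side no test between genotypes was possible, and no p-value is given. Each log2 ratio of ld-2 over WT stands with its exact 95% interval, which covers counting error only and not the spread between plants. A row or family was called higher or lower when its ratio reached 2-fold and its interval excluded 0 on the log2 scale. It was called modestly higher or lower when the interval excluded 0 and the ratio stayed under 2-fold.

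By this rule 23 of the 109 rows were higher in ld-2 (21.1% of the rows tested) and 8 were lower (7.34%). A further 9 rows were modestly higher (8.26%) and 22 modestly lower (20.2%), and the intervals of the other 47 included 0 (43.1%). The median log2 ratio over all tested rows was 0.03. Of the 23 higher rows, 12 were miR2118 and 11 were others. Read depth differed across these calls: 15 of the 23 higher rows had under 30 reads in WT, and 5 of the 8 lower rows had under 30 reads in ld-2. The ld-2 reads count in the read minimum: 8 of the 23 higher rows had under 30 reads over ld-1 and WT. These 8, from miR5791 (3 reads in ld-1 and 4 in WT) to miR2118i (15 and 14), passed only with their ld-2 reads. That favours high ratios among them, to an extent that differs by row. Likewise 1 of the 8 lower rows, miR172b, passed only through its WT reads. Summed by the number in the name, 60 of 219 families reached the read minimum. Of these, 8 families were higher (13.3%), 4 lower (6.67%), 7 modestly higher (11.7%) and 14 modestly lower (23.3%). The higher families were miR2118, miR528, miR398, miR5519, miR5791, miR5793, miR5797 and miR5806, and the lower ones were miR156, miR172, miR820 and miR1428. Of the 8 higher families, 6 passed the minimum only through their ld-2 reads, the exceptions being miR2118 and miR528.

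**Figure D1:**
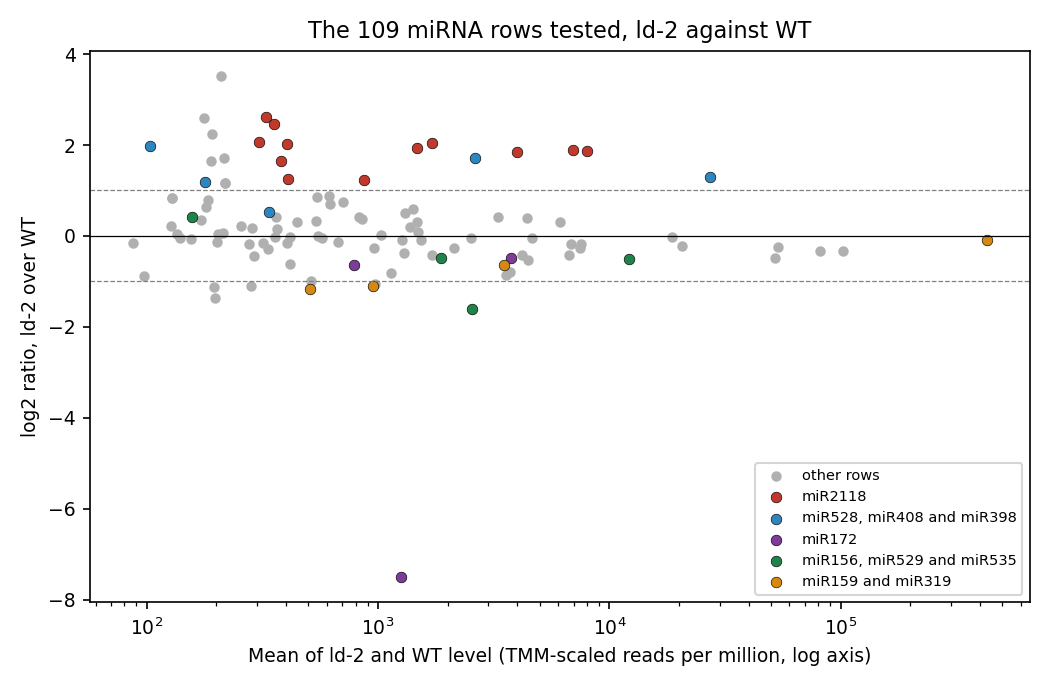
Each point is 1 of the 109 tested rows, with the mean of its ld-2 and WT levels in TMM-scaled RPM on a log axis and its log2 ratio of ld-2 over WT upward. Dashed lines mark 2-fold; the 12 miR2118 rows lie between 1.24 and 2.61, and miR172b lies at -7.51.

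Calls depended in part on how the libraries were scaled. Against the main scaling, RPM of all miRNA reads moved every log2 ratio by 0.10, DESeq2 size factors by -0.05, library sizes without the 5 most abundant rows by -0.21, and scaling recomputed without miR2118 by 0.12. TMM over ld-2 and WT alone gave the same ratios. Values in brackets after a ratio are its interval for counting error under the main scaling. The range over these 6 scalings is given in words for some families, and the plot of family sums shows it for the abundant ones.

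**Figure D2:**
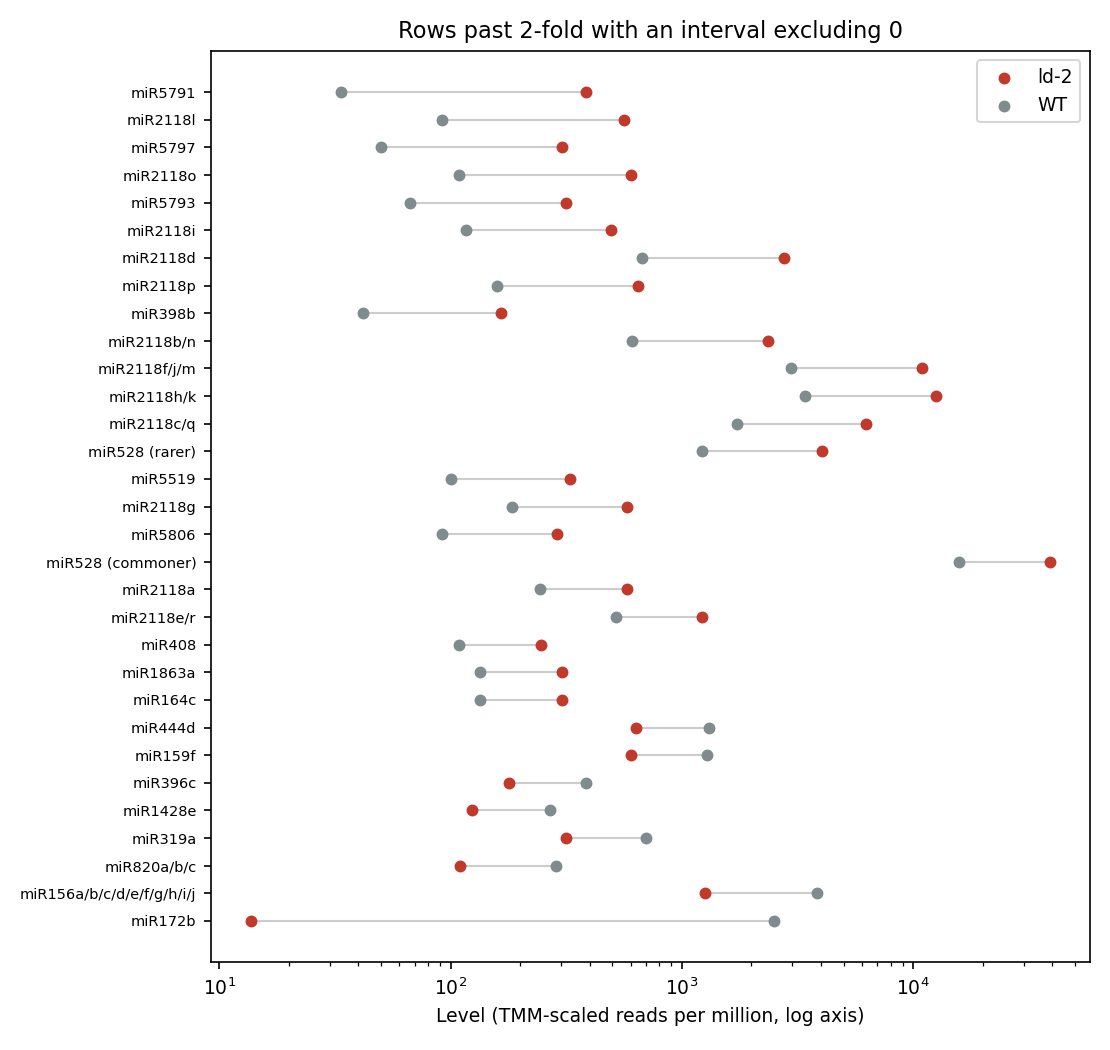
Levels of the 31 called rows in ld-2 (red) and WT (grey), in TMM-scaled RPM on a log axis, ordered by ratio from the highest at the top. miR528 was the most abundant of the higher rows, and miR172b, with 13.7 RPM in ld-2 and 2494 RPM in WT, spans the widest gap.

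The miR172 family, which represses AP2-like factors during flower development, fell to 275 reads in ld-2, against 935 in WT. The summed log2 ratio was -1.05 (-1.25 to -0.86), a 2.07-fold lower level. The row of miR172b had 1 read in ld-2, 2 in ld-1 and 298 in WT, which is the base of that drop. The rest of the family was still lower: without miR172b it had 274 reads in ld-2 and 637 in WT, a log2 ratio of -0.50 (-0.71 to -0.30), while ld-1 had 683. The row shared by miR172a and miR172d was modestly lower, with 229 reads in ld-2 and 522 in WT, and its ratio stayed between -0.68 and -0.35 over the scalings. The other miR172d sequence, with 45 reads in ld-2 and 115 in WT, was modestly lower as well and ranged from -0.85 to -0.52. The family sum itself was no longer 2-fold lower with RPM of all miRNA reads (-0.96) or with scaling recomputed without miR2118 (-0.93).

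The 3 families grouped by action on SPL factors, regulators of panicle branching and phase change, were lower or modestly lower in ld-2 as sums. The sequence shared by miR156a to miR156j had 92 reads in ld-2, 464 in ld-1 and 458 in WT, and was 3.04-fold lower in ld-2 (log2 -1.60, -1.94 to -1.28). miR535 had 732 reads in ld-2, 1116 in ld-1 and 1713 in WT. It was modestly lower in ld-2 at -0.51 (-0.64 to -0.39). The miR529a row had 114 reads in ld-2 and 262 in WT, a log2 ratio of -0.49 (-0.82 to -0.16). It made up 99.1% of the miR529 reads in ld-2 and 100% in WT. The table does not name its strand, so whether this sequence is the one that acts on SPL transcripts is not known here. Of the 4 tested rows of these families 1 was lower, 2 were modestly lower and 1, the rarer miR535 sequence with 13 reads in ld-2 and 16 in WT, had an interval that included 0. Over all rows 7.34% were lower and 20.2% modestly lower. The median of the 4 was -0.50, against 0.03 over all rows. The printed sequences of miR156 and miR535 are alike up to the fifth base and have different seeds.

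The miR159 and miR319 families, which act on GAMYB and TCP factors, differed from each other. miR159 took 45.5% of all reads in both libraries, with 30348 reads in ld-2 and 53201 in WT. Its log2 ratio of -0.10 (-0.12 to -0.08) went from -0.30 to 0.03 over the scalings, so its direction is not fixed by these data. miR319 was modestly lower at -0.71 (-0.94 to -0.48), with 223 reads in ld-2 and 597 in WT, and stayed between -0.91 and -0.58. Its common row, miR319b, had 200 reads in ld-2 and 513 in WT. The rows called lower were miR319a, with 23 reads in ld-2 and 84 in WT (log2 -1.16), and miR159f, with 44 and 154 reads in ld-2 and WT (log2 -1.09). The miR319a sequence has no seed in common with miR319b, and the table does not name the strand of either. miR159f fell short of 2-fold under plain RPM (-0.998) and with scaling recomputed without miR2118 (-0.97).

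miR2118, the 22-nt trigger of phased siRNAs in the premeiotic anther, was the family with the largest gain in read share. It took 4.32% of the reads in ld-2, 0.858% in ld-1 and 1.11% in WT. The 12 rows summed to 2880 reads in ld-2 and 1292 in WT, 3.66-fold higher in ld-2 (log2 1.87, 1.77 to 1.97). The most abundant, miR2118h//miR2118k, had 914 reads in ld-2 and 409 in WT. It made up 31.7% of the family in both libraries. Of the 30 pairs of miR2118 rows that differ at 1 or 2 bases, 2 had an odds ratio between the libraries whose interval excluded no change, both with miR2118e//miR2118r. The 12 rows held 6 seeds. Rows with the seed TCCTGAT were at a summed log2 ratio of 1.91 (1.79 to 2.03) and those with TCCCGAT at 1.88 (1.68 to 2.08). The lowest rows were miR2118e//miR2118r, with 89 reads in ld-2 and 62 in WT (log2 1.24, 0.75 to 1.73), and miR2118a, with 42 and 29 (log2 1.25, 0.53 to 1.98). miR2118 is known from reproductive tissue and was present in each library, as the panicle label would have it. miR2275, which triggers phased siRNAs in the meiotic anther, had 0 reads in ld-2, which allows up to 41.2 scaled RPM, and 1 in WT. Whether the panicles were sampled at the same stage was not tested, and fewer cells of a type cannot be told apart from less RNA per cell in whole panicles.

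Leaving miR2118 out, with library sizes and scaling recomputed on the rest, gave 11 of 97 rows higher (11.3%) and 4 lower (4.12%). Modest calls numbered 14 higher (14.4%) and 20 lower (20.6%). Under the main scaling the same 97 rows gave 11 higher (11.3%) and 8 lower (8.25%). The 4 rows that stayed lower were miR172b, miR156, miR319a and miR820. The 4 that no longer reached 2-fold or whose interval then included 0 were miR159f, miR396c, miR444d and miR1428e. miR159a//miR159b changed sides, from a modestly lower to a modestly higher call. At family level 7 of 59 were higher (11.9%), 3 lower (5.08%), 10 modestly higher (16.9%) and 12 modestly lower (20.3%). The sum of miR172 was the family that left the lower calls.

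Copper-related miRNAs were the other group with a large gain, most of it in reads of miR528. miR528, a monocot family that acts on copper proteins such as an ascorbate oxidase, took 4.70% of the reads in ld-2 and 1.74% in WT. Its more abundant row had 2839 reads in ld-2, 5446 in ld-1 and 1885 in WT, 2.47-fold higher in ld-2 (log2 1.30, 1.22 to 1.39). The rarer row had 294 reads in ld-2 and 146 in WT (log2 1.72, 1.43 to 2.02). miR398b, of a family that acts on copper/zinc superoxide dismutases, had 12 reads in ld-2 and 5 in WT (log2 1.98, 0.37 to 3.83). The miR408 row cAGGGATGaggcagagcatgg had 18 and 13 reads in ld-2 and WT (log2 1.18, 0.07 to 2.33). The other miR408 row, cTGCACTGcctcttccctggc, had 29 and 33, and its interval included 0 (-0.24 to 1.29). Thus 4 of 5 tested rows were higher, against 21.1% of all tested rows, with a median of 1.30, against 0.03 over all rows. These are not 5 separate miRNAs: the miR528 rows can pair with each other as duplex strands would, and so can the miR408 rows. For miR408 only the rarer row was called. With 21 reads in ld-1 and 5 in WT, miR398b passed the read minimum only through its ld-2 reads, which favours a high ratio. Of the 3194 reads of the copper list in ld-2 and 2085 in WT, miR528 held 3133 and 2031. The calls of miR398b and miR408 rest on few reads: both ended with a 99% interval, and that of miR408 also ended without the 5 most abundant rows (0.98). The sum of the miR398 family (log2 1.71) lost its call under both alternatives, at 1.51 without the 5 most abundant rows with an interval from -0.02 to 3.21.

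**Figure D3:**
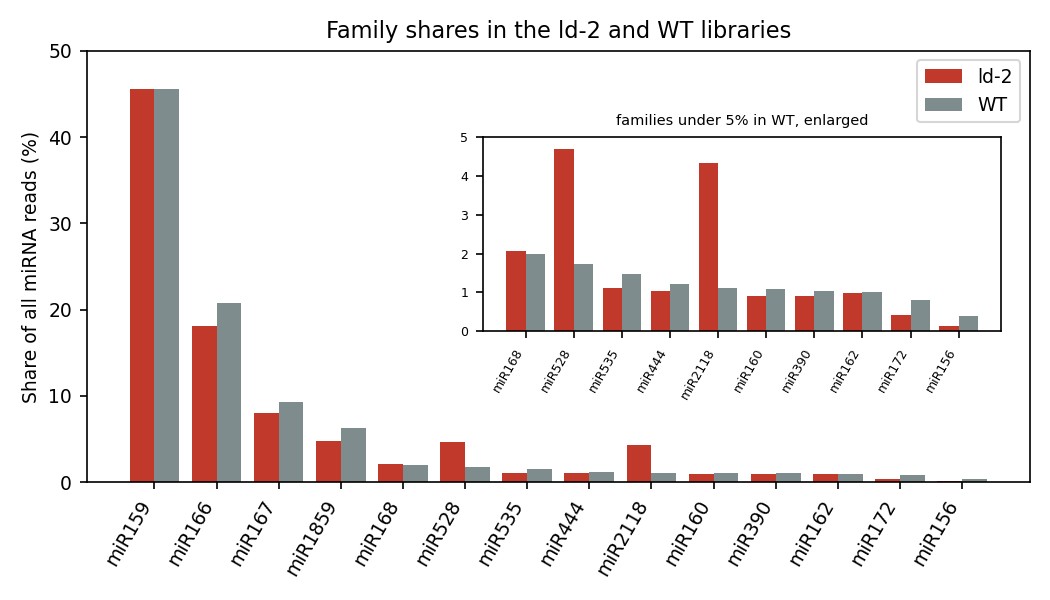
Share of all miRNA reads taken by the 12 most abundant families in WT and by miR172 and miR156, in ld-2 (red) and WT (grey), with the families under 5% in WT enlarged in the inset. miR159 takes the same 45.5% in both libraries, miR528 and miR2118 are larger in ld-2, and miR166, miR167 and miR1859 are smaller.

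The remaining higher rows were rare. Of the 8 tested rows with numbers from 5400 to below 5900, 5 were higher, against 21.1% of all tested rows. The tested rows not called, miR5794, miR5807 and miR5513, had intervals that included 0. Highest was miR5791, with 28 reads in ld-2 and 4 in WT (log2 3.52, 2.01 to 5.49). The other higher ones were miR5797 with 22 and 6, miR5793 with 23 and 8, miR5519 with 24 and 12, and miR5806 with 21 and 11. The ratios of the last 4 were 2.59, 2.24, 1.71 and 1.65, all with intervals above 0. These 5 rows had between 7 and 21 reads over ld-1 and WT together, so each entered only through its ld-2 reads. That favours high ratios among them, most for those with the fewest reads over ld-1 and WT. Over all 74 rows with these numbers, tested or not, 399 reads stood in ld-2, 273 in ld-1 and 255 in WT. That is a summed log2 ratio of 1.36 (1.13 to 1.59) for ld-2 over WT. The sum includes the 5 rows above, so it is no separate support for them. All 150 rows under the minimum with a read in ld-2 or WT, 49 of them with these numbers, summed to 0.70 (0.48 to 0.91). miR164c and miR1863a each had 22 reads in ld-2 and 16 in WT (log2 1.17, 0.18 to 2.20), and both calls ended with a 99% interval and without the 5 most abundant rows (0.97). At the low end, miR820, known in rice to act on the DNA methyltransferase gene OsDRM2, had 8 reads in ld-2 and 34 in WT (log2 -1.37, -2.70 to -0.24). miR1428e had 9 and 32 (log2 -1.12, -2.37 to -0.02). miR444d, of a monocot family that acts on MADS-box transcripts, had 46 reads in ld-2 and 156 in WT (log2 -1.05, -1.56 to -0.57). The miR396c row gGTCAAGAaagctgtgggaag had 13 and 46 reads (log2 -1.11, -2.12 to -0.20). The calls of miR820, miR1428e and this miR396c row ended with a 99% interval. Under plain RPM those of miR444d (-0.95) and miR1428e (-1.02, with an interval that then included 0) ended too.

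Among the abundant families most shifts were small and downward. The 24 families with at least 300 reads over ld-2 and WT held 2 that were higher, 2 lower, 4 modestly higher and 14 modestly lower, and 2 had an interval that included 0. Over all 60 families 13.3% were higher, 6.67% lower, 11.7% modestly higher and 23.3% modestly lower. Intervals narrow with read depth, so a modest call is easier to reach in an abundant family, and all 14 modestly lower families were among these 24. By rows the picture was alike: of 16 rows with at least 1000 reads over both libraries, 3 were higher, 1 modestly higher and 11 modestly lower, with a median of -0.20. Over all 109 rows these shares were 21.1% higher, 8.26% modestly higher and 20.2% modestly lower, with a median of 0.03. Families with a larger share in ld-2 gained 7.68 percentage points of all reads together, and miR528 and miR2118 accounted for 6.18 of them. Read shares sum to a fixed total, so a gain in some families lowers the share of others at equal level. The range over the scalings shows only part of that, since no scaling was computed without both miR528 and miR2118. All rows other than those of miR528 and miR2118 summed to a log2 ratio of -0.19 (-0.21 to -0.18). In size that is more than the 0.12 by which scaling without miR2118 moved the ratios. The interval stayed on the same side of 0 under every scaling for 11 of the 14 modestly lower families and 2 of the 7 modestly higher ones among all 60. For rows these numbers were 17 of 22 and 4 of 9.

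miR166, which acts on HD-ZIP III factors of meristem and organ polarity, had 12034 reads in ld-2 and 24232 in WT. Its share was 18.1% in ld-2 and 20.7% in WT, and its log2 ratio was -0.30 (-0.33 to -0.26), between -0.50 and -0.17 over the scalings. The 4 rows with its common seed CGGACCA summed to -0.29 (-0.32 to -0.25), and the 3 abundant ones lay at -0.32, -0.25 and -0.23. miR1859, a rice 22-nt sequence, had 3170 reads in ld-2, 8795 in ld-1 and 7297 in WT. Its log2 ratio of -0.49 (-0.55 to -0.43) stayed between -0.69 and -0.37.

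Among the families of auxin signalling, 3 of 4 were modestly lower. That call was made for 23.3% of all 60 families and for 14 of the 24 with at least 300 reads over ld-2 and WT. miR167 had 5334 reads in ld-2 and 10872 in WT, at -0.31 (-0.36 to -0.27), and miR160 had 604 and 1275, at -0.36 (-0.51 to -0.22). miR390, which starts the trans-acting siRNAs against auxin response factors, had 600 reads in ld-2 and 1209 in WT, at -0.30 (-0.44 to -0.15). Each of these 3 sums had its interval below 0 under every scaling, though no scaling left out both miR528 and miR2118. miR393, of a family that acts on auxin receptors, was modestly higher as a sum, but not under every scaling. It had 66 reads in ld-2 and 73 in WT (log2 0.57, 0.07 to 1.07). That direction is set by the miR393b row, with 56 reads in ld-2 and 56 in WT (log2 0.71, 0.15 to 1.27). The miR393a row had 10 and 17, and its interval included 0 (-1.34 to 1.16). The table does not name the strand of either row. Of the 9 tested rows of these families, 4 were modestly lower, 1 was modestly higher and 4 had intervals that included 0, with a median of -0.26. Over all tested rows 20.2% were modestly lower, 8.26% modestly higher and 43.1% had an interval that included 0, with a median of 0.03. The sum of miR167 is mostly that of its abundant row, and the median over its tested rows was 0.01.

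Other patterning families were modestly lower too. miR164, which acts on NAC boundary genes, had 285 reads in ld-2 and 594 in WT (log2 -0.35, -0.55 to -0.14). That direction is set by its abundant row: the median over its 2 tested rows was 0.38, since miR164c was higher. miR396, which acts on growth-regulating factors, had 428 and 928 (log2 -0.40, -0.57 to -0.24). miR444 had 686 reads in ld-2 and 1415 in WT (log2 -0.33, -0.46 to -0.20). For miR394, which acts on an F-box gene of the stem cell niche, 515 and 952 reads gave -0.17 (-0.33 to -0.02), which did not stay below 0 under every scaling. miR171, of a family that acts on GRAS factors, went the other way as a sum, likewise not under every scaling. It had 294 reads in ld-2 and 405 in WT (log2 0.25, 0.03 to 0.47). The row modestly higher was the miR171c sequence gGATATTGgtgcggttcaatc, with 124 and 134 reads (log2 0.60, 0.24 to 0.96). The row shared by miR171b to miR171f, which can pair with it, had 109 and 189. Its interval included 0 (-0.43 to 0.27). The list of meristem and organ patterning families had 21 tested rows, of which 1 was higher, 1 lower, 2 modestly higher and 8 modestly lower, with a median of -0.17. Over all tested rows 21.1% were higher, 7.34% lower, 8.26% modestly higher and 20.2% modestly lower, with a median of 0.03. In the miR444 list of 5 rows, 1 was lower and 1 modestly lower, against 7.34% and 20.2% of all rows, with a median of -0.17, against 0.03.

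**Figure D4:**
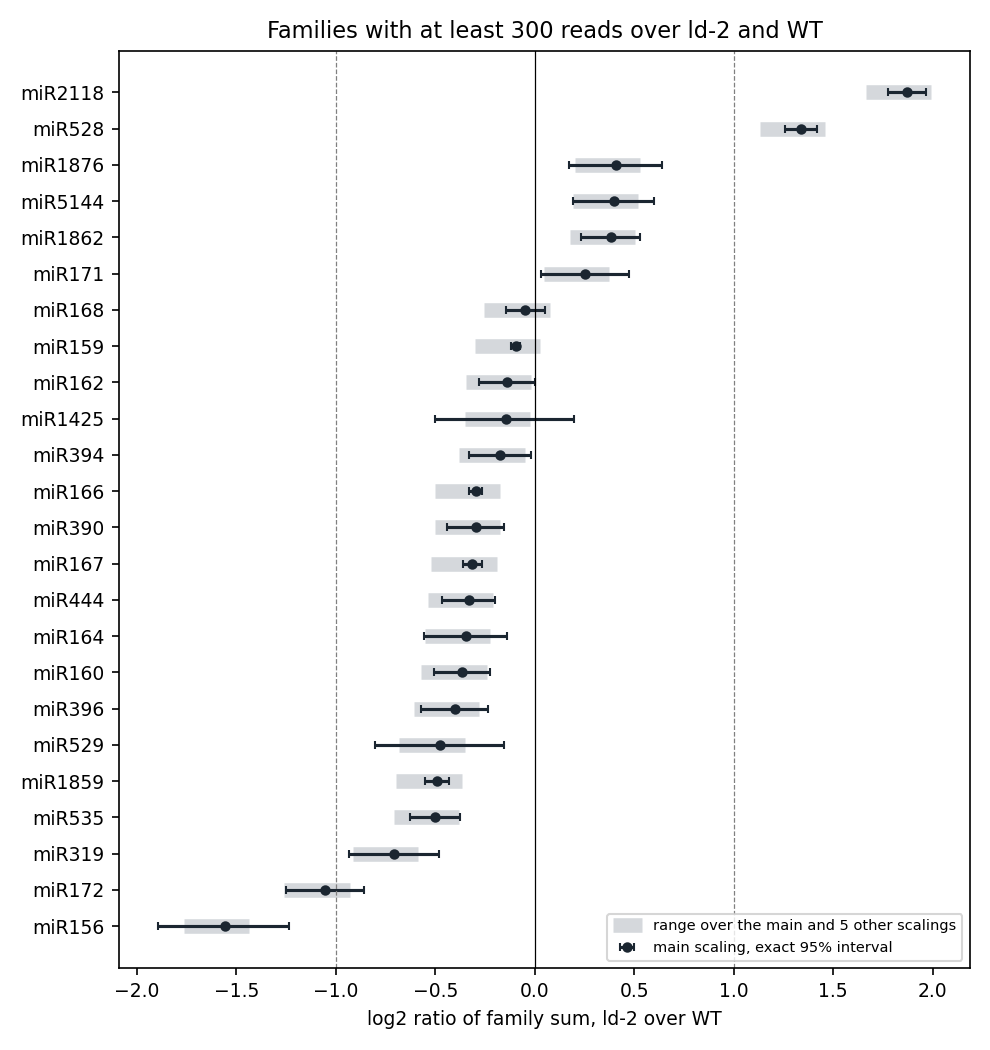
Summed log2 ratio of ld-2 over WT for the 24 families with at least 300 reads over ld-2 and WT, ordered from the highest at the top. Points and whiskers give the main scaling with its exact 95% interval, and grey bars give the range over the main and 5 other scalings; miR156 (-1.56) and miR172 (-1.05) are at the low end, miR2118 (1.87) and miR528 (1.34) at the high end.

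The families that feed back on the miRNA pathway itself stood close to 0 as sums. miR168, which acts on AGO1, had 1372 reads in ld-2 and 2325 in WT (log2 -0.05, -0.14 to 0.05), and miR162, which acts on DCL1, had 647 and 1169 (log2 -0.14). None of their 4 rows was called, 2 were modestly lower, against 20.2% of all rows, and their median of -0.11 turned to 0.01 under the highest scaling. The lowest of the 4 was the rarer miR168a row, with 25 reads in ld-2 and 81 in WT (log2 -0.98, -1.69 to -0.32). Its interval was below 0 under every scaling. The modestly higher families with at least 300 reads beside miR171 were miR1876 with 275 reads in ld-2 and 340 in WT (log2 0.41, 0.17 to 0.64), miR5144 with 367 and 457 (log2 0.40, 0.19 to 0.60) and miR1862 with 659 and 829 (log2 0.38, 0.23 to 0.53). Of these miR1862 had its interval above 0 under every scaling. miR1425 had 108 reads in ld-2 and 196 in WT, and its interval included 0 (-0.50 to 0.20). The nuclear factor Y family miR169 had 23 reads in ld-2 and 45 in WT, with an interval of -1.05 to 0.50. For nutrient signalling, miR395, miR399 and miR827 together had 10 reads in ld-2 and 5 in WT, with no row above the minimum.

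Rows of 1 family did not always move together. Among the tested rows there were 25 pairs outside miR2118 of equal length that differ at 1 or 2 bases. For each pair the share of the rarer row was compared between libraries, a measure that no library scaling can change. In 8 of the 25 pairs the 95% interval of the log2 odds ratio excluded 0, in 6 of them with a larger share of the rarer row in ld-2. Neither labels nor table say how the authors assigned reads to such close sequences, so these shares are uncertain beyond counting error. Substitutions are given from the commoner to the rarer row, counted from 1 at the 5′ end.

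The widest gap was that of miR172b, which differs from miR172a//miR172d by A1G. It took 0.435% of their reads in ld-2 (exact 95% binomial interval 0.0110% to 2.40%) and 36.3% in WT (33.0% to 39.7%). The row of miR396a//miR396b differs from that of miR396c by T21G. It took 37.7% of the pair in ld-2 (32.2% to 43.5%) and 23.7% in WT (20.7% to 27.0%). The reads behind this were 112 and 185 in ld-2 and 172 and 553 in WT, so the fall of the miR396 family was that of miR396c (log2 -0.87) with miR396a//miR396b near 0 (log2 0.09).

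miR164c, which differs from miR164a//miR164b//miR164f by C14T, took 7.75% of that pair in ld-2 (4.92% to 11.5%) and 2.71% in WT (1.56% to 4.36%). miR166e, which differs from the most abundant miR166 row by G4A within the seed, took 0.957% in ld-2 and 0.463% in WT. The shared row of miR167d to miR167j differs from miR167a//miR167b//miR167c by A21G and took 0.826% in ld-2 and 0.524% in WT. In the other direction miR159f, which differs from miR159a//miR159b by T1C and G21A, took 0.145% in ld-2 and 0.289% in WT. The pair miR162b and miR162a is one where the interval included 0, at 27.8% in ld-2 and 26.2% in WT.

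**Figure D5:**
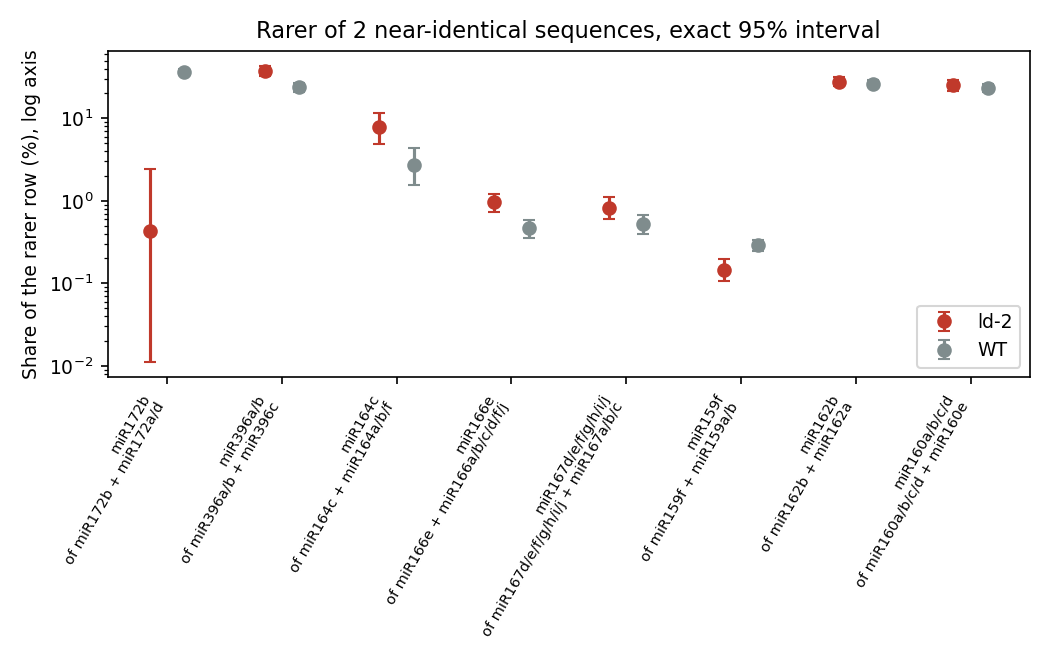
Share of the rarer row in 8 pairs of near-identical sequences in ld-2 (red) and WT (grey), on a log axis, with exact 95% binomial intervals for counting error. The first 6 pairs have an odds ratio whose interval excludes 1, with miR172b at 0.435% in ld-2 and 36.3% in WT, and the last 2, of miR162 and miR160, do not; the pairs were picked after their values were seen.

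Many names stand over 2 sequences that can pair with each other over 15 or more bases, as the strands of 1 duplex would. There were 18 such pairs. In 12 of them the interval of the odds ratio between the libraries included no change. The rarer strand of miR528 had 9.38% of the pair in ld-2 (8.39% to 10.5%) and 7.19% in WT (6.10% to 8.40%), so both strands were higher in ld-2, the rarer one by slightly more. The miR171c row that was rarer over both libraries had 53.2% in ld-2 and 41.5% in WT, and that of miR166e had 43.8% and 26.5%. The partner row of miR171c is shared by miR171b to miR171f, and that of miR166e is shared with miR166a. Reads of those other names can enter these shares, so they are not shares of 1 duplex. Lower shares in ld-2 were those of the rarer strands of miR166h (5.28% in ld-2, 7.49% in WT), miR166k (4.18% and 6.11%) and miR168a (1.82% and 3.48%). Partner rows are shared here too, with miR166g for miR166h and with miR166l for miR166k. The strands of miR390 stood at 17.8% in ld-2 and 19.4% in WT, and those of miR396c at 6.57% and 7.68%, with intervals that included no change. The pair listed under miR444b and miR444c is of another kind, as the sequences tGTTGTCTcaagcttgctgcc and tGCAGTTGttgtctcaagctt overlap in register. The first took 44.2% of that pair in ld-2 (40.2% to 48.3%) and 52.6% in WT (49.7% to 55.4%).

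Length and first base of the sequences were set against the ratios. The 24 rows of 24 nt had 16 ratios above 0 and 8 below, with 1 row higher, 5 modestly higher and 1 modestly lower, against 21.1%, 8.26% and 20.2% of all rows. Their summed reads were 1510 in ld-2 and 2059 in WT, a log2 ratio of 0.27 (0.17 to 0.36), between 0.06 and 0.39 over the scalings. The 64 rows of 21 nt had a median of -0.09 and held 10 higher and 7 lower rows, against 21.1% and 7.34% of all rows. The 6 rows of 20 nt were all lower or modestly lower, calls that 7.34% and 20.2% of all rows had, at a sum of -0.53 (-0.63 to -0.42). The 22-nt class was set by miR2118: all 15 rows summed to 0.21, and the 3 rows without miR2118, mostly miR1859, to -0.48 (-0.54 to -0.42). By first base, the 13 rows that start with G, among them miR172b and the rarer miR166 strands, summed to -0.70 (-0.83 to -0.57), with 678 reads in ld-2 and 1809 in WT.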

How the data were processed

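Small RNA of 20 to 30 nt from young panicles was sequenced on an Illumina MiSeq after NEXTFlex library preparation, per the labels' protocols. The deposited values are raw read counts per mature miRNA sequence, per the file headers. Neither labels nor file header name the trimming, mapping, counting rules or annotation. Library scaling used TMM (edgeR 4.0.16, R 4.3.3) on rows with at least 30 summed reads, with factors of 1.09 for ld-2, 0.894 for ld-1 and 1.02 for WT. Intervals are exact Clopper-Pearson 95% limits on the 2 counts given the scaled library sizes (Python 3.11.15, scipy 1.17.1), and odds ratios of pairs have exact conditional limits. A count of 0 was set to a floor of 3 reads. Reads are not independent molecules, and intervals and floors cover counting error only.

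Named are all called rows and families, the 12 most abundant rows, every miR172 row, and families with at least 300 reads over ld-2 and WT with their top row. Further rows were chosen after their values were seen. Members, family lists and rules were chosen with earlier results of these data known. The rule was tested on simulated data. Alternatives were 5 other scalings (one with DESeq2 1.42.0 size factors), read minimums, size thresholds, a 99% interval, 0.5 added reads and other family summaries. Sequence pairs were compared after the data were seen.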

Additional observations from a re-analysis of the deposited data

Results flagged for a closer look

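The comparison does not use rows below the read minimum, of which 150 had a read in ld-2 or WT. Of these, 8 stood at least 2-fold above WT in ld-2 with a 99% interval for counting error that excluded no change. Rows on the low side are not given here, so this list does not show the direction of the rare rows. Of the 109 tested rows, with no size threshold, 27 had a 99% interval above 0 and 23 had it below 0. They were miR399d with 8 reads in ld-2 and 1 in WT, miR5486 with 17 and 0, miR5487 with 18 and 5, miR5488 with 10 and 3, miR5494 with 7 and 0, miR5507 with 19 and 1, miR5516a//miR5516b with 15 and 1, and miR5822 with 14 and 2. All 150 rows under the minimum with a read in ld-2 or WT summed to 351 reads in ld-2 and 355 in WT, a log2 ratio of 0.70 (0.48 to 0.91). Of these rows 49 carry numbers from 5400 to below 5900, with 195 reads in ld-2 and 100 in WT.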

How the results depend on the processing

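The counts of called rows and families moved by over 1.5 times under these alternatives. With RPM of all miRNA reads 5 rows were lower. Without the 5 most abundant rows in the library sizes 4 rows and 2 families were modestly higher. Without miR2118 the rows were 11 higher, 4 lower and 14 modestly higher, of 97 tested. With no read minimum, which adds 150 rows to the 109, 35 rows and 18 families were higher. At a minimum of 100 reads, which leaves fewer rows and families tested, 8 rows were higher and 5 lower, and 2 families were higher and 2 lower. Counts under other read minimums are therefore not comparable with 23 of 109 rows or 8 of 60 families. At 1.5-fold 14 rows were lower and 4 modestly higher. At a log2 threshold of 1.5, 2 rows were lower, 15 modestly higher, and 1 family was lower. With a 99% interval 5 rows and 2 families were lower and 4 families modestly higher. DESeq2 size factors, TMM over ld-2 and WT alone and 0.5 added reads moved no count that far. With the minimum taken over ld-1 and WT alone, an alternative chosen after seeing the data, 15 rows and 2 families were higher. Fewer rows and families were tested there, since the 8 higher rows and 6 higher families that passed only with their ld-2 reads were left out. No named row or family called higher or lower at 2-fold changed sign under any alternative that gave a value. Modest calls did: without miR2118 miR159a//miR159b stood at 0.03 and the miR159 family at 0.03, against -0.09 and -0.10. Taken as the median over the tested rows, miR164 was 0.38 and miR167 0.01, both modestly lower as sums. Without their most abundant row the sums of 4 modestly lower families stood above 0: miR164 (0.99), miR167 (0.54), miR396 (0.09) and miR535 (0.41). The other family medians that left the interval of their sum were miR159 (-0.59), miR168 (-0.50), miR172 (-0.64), miR444 (-0.17), miR528 (1.51) and miR535 (-0.05). The miR1428 family lost its call without its most abundant row, where 0 reads in ld-2 were set to the floor (-0.02). The cause was not tested where a scaling moved a call, and the stricter and looser thresholds move calls by construction. The sums of miR156 and miR398 without their most abundant row had 3 or fewer reads a side and gave no value. No paired analysis was possible because each genotype had 1 library.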
